A study of Mus musculus with 12 samples.

Results

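The Hoxb genes lie side by side in 1 of the 4 mammalian Hox clusters, on mouse chromosome 11, and encode homeodomain transcription factors. All probe sets whose annotation named Hoxb1, Hoxb2, Hoxb3, Hoxb4, Hoxb5, Hoxb6, Hoxb7, Hoxb9 or Hoxb13 were taken, which gave 12 of 37600 probe sets and 9 of 16509 named genes. Of these, 11 carried a single symbol, with 2 probe sets each for Hoxb3 and Hoxb4. The other carried the symbols of both Hoxb8 and Hoxb7 and is credited to neither gene.

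Expression was measured on 12 Affymetrix arrays in F9 cells, a mouse teratocarcinoma line that resembles early embryonic cells and differentiates when given retinoic acid. The 4 groups of 3 arrays were WT cells in ethanol vehicle, WT cells in all-trans retinoic acid (atRA), and cells labelled RARaKO, a knockout of Rara (which encodes retinoic acid receptor alpha), in vehicle and in atRA. Every group, controls included, was pretreated for 30 min with cycloheximide, an inhibitor of protein synthesis, at 1 µg/ml. The cells then received 1 µM atRA or 0.1% ethanol for 7.5 h, which gives 8 h in cycloheximide. The arrays of a group are numbered 2, 3 and 4 after the sets in the labels. The labels do not say whether sets are separate cultures, so p-values reflect array-to-array spread that could be technical, nor whether the RARaKO line is 1 clone, so clone and genotype cannot be told apart.

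Hox genes are ordered along a cluster as they are used along the body axis: those at the 3' end (Hoxb1, Hoxb2) act in the hindbrain, those at the 5' end (Hoxb9, Hoxb13) in the trunk and tail. Retinoic acid binds heterodimers of a retinoic acid receptor and a retinoid X receptor, which sit on response elements in and beside the clusters, some of them beyond the 3' end of Hoxb1. In embryonal carcinoma cells retinoic acid is known to switch on Hox genes of the 3' side first. With protein synthesis blocked, responses that need a newly made protein are limited, which is why such designs are used to look for direct targets.

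Promoter sequences from RefSeq (assembly GRCm38.p6) matched 2 of the 9 genes, Hoxb1 and Hoxb4. The 250 bases before each start site are shown because a probe set of each gene rose with atRA in WT. Capitals mark motif matches.
Hoxb1, chr11:96365508-96365757, plus strand: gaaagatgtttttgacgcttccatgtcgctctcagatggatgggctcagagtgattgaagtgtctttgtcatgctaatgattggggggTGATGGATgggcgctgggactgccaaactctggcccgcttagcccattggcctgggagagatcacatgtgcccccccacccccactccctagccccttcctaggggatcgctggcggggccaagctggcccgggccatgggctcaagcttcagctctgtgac
Hoxb4, chr11:96318017-96318266, plus strand: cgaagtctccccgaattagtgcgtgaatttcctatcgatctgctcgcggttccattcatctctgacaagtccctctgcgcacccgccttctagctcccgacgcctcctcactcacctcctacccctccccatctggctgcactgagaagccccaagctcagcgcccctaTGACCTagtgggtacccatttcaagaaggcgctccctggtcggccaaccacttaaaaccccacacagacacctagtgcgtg
In the Hoxb1 sequence the capitals mark TGATGGAT at bases 89 to 96, a match to TGATNNAT, the site of a PBX-HOX pair. Hoxb1 is known to act on its own promoter together with Pbx proteins. In the Hoxb4 sequence they mark TGACCT at bases 170 to 175, the reverse strand of the receptor half-site AGGTCA. The search covered both strands of the full windows of 250 bases before and 50 after the start site. It used TGATNNAT, the homeodomain core TAATTA, the half-site AGGTCA with its variants (AGTTCA as well as GGGTCA along with GGTTCA), and direct repeats of these half-sites spaced by 1, 2 or 5 bases. Of 32851 mouse promoters 8.85% held TGATNNAT and 43.7% held a half-site, while 5.29% held TAATTA. Direct repeats spaced by 1, 2 and 5 bases were in 0.222%, 0.268% and 0.0974% of promoters, and neither Hoxb window held one. A match describes the letters and is no evidence of binding, and the response elements named above may lie outside these windows.

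The values are log2 expression after GCRMA, and each probe set is centred on its own median across all arrays. Group differences can therefore be read and levels cannot. A coarse class of the lost level was recovered from the spacing of the values. By this class 11 of the 12 Hoxb probe sets had a log2 level of 4 or more on every array with at least 1 array under 8, and Hoxb6 had at least 1 array under 4. In contrast 33.6% of all probe sets were at 8 or more on every array. With each gene read by its probe set of the highest class, as the markers were, this held for 7792 of 16509 named genes. The 10 markers of pluripotent cells fixed as a check of the labelled cell type were all in that highest class, as were 11 of 12 endoderm markers, 1 of 5 fibroblast markers and 2 of 6 neural markers. Rara itself, read by a single probe set, was higher, not lower, in arrays labelled RARaKO: in vehicle its mean was 0.30 ± 0.02 (SD, n = 3) against -0.60 ± 0.14 in WT (log2 difference 0.90 ± 0.09, limma adjusted p = 1.50e-04). Where this probe set lies relative to the disrupted part of the gene is not given in the sources used here, so the genotype is taken from the labels and every direction below is between arrays labelled RARaKO and WT.

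In WT cells atRA raised transcripts of the genes from Hoxb1 to Hoxb5. A call means an adjusted p under 0.05 (limma, Benjamini-Hochberg over all probe sets), and a difference is given with its standard error, from 3 arrays in each group. Each of the 5 genes from Hoxb1 to Hoxb5 had a called probe set, and no probe set of Hoxb6, Hoxb7, Hoxb9 or Hoxb13 was called. A difference between the 3' and the 5' side was not tested. The uncalled difference of Hoxb13 (0.52) was larger than those of Hoxb3 1427605_at (0.34) and Hoxb4 1451761_at (0.43), also uncalled. In all 5 of 12 Hoxb probe sets rose, against a background of 0.484% of all probe sets called higher, and none fell (background 0.0851%). The median difference over the 12 was 0.48, against -0.01 over all probe sets, and all 12 differences were above 0. In 11 of the 12 every atRA array lay above every vehicle array, which held for 6.22% of all probe sets, and the reverse held for none of the 12 and 7.4% of all.

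**Figure D1:**
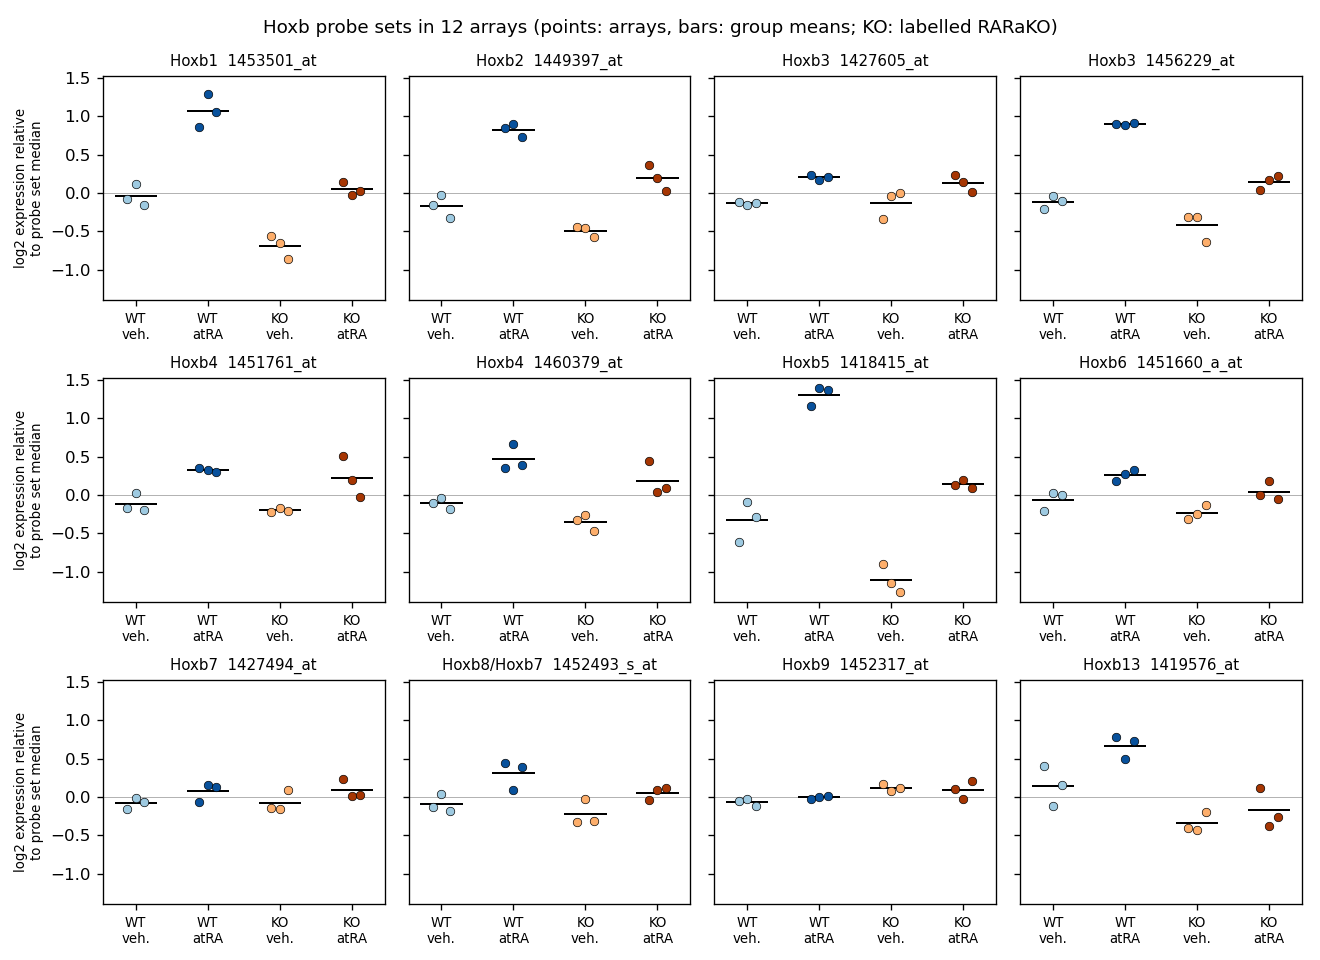
Log2 expression relative to the probe set median (vertical axis) of the 12 Hoxb probe sets in the 4 groups, WT and labelled RARaKO (KO), each in vehicle and atRA; points are arrays and bars are group means. Hoxb1, Hoxb2, the Hoxb3 probe set 1456229_at and Hoxb5 show the widest separation of groups, with the WT atRA arrays on top, while the 12 arrays of Hoxb9 lie between -0.12 and 0.21.

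Hoxb1, which sets the identity of a hindbrain segment, read -0.09, 0.12 and -0.15 in the WT vehicle arrays (sets 2, 3 and 4) and 0.86, 1.29 and 1.06 in the WT atRA arrays. The groups did not overlap, and the lowest atRA array stood well above the highest vehicle array. Hoxb1 rose 2.16-fold (log2 difference 1.11 ± 0.11, limma adjusted p = 5.11e-04). Hoxb2, a hindbrain gene and a known target of Hoxb1, read -0.16, -0.02 and -0.32 in vehicle and 0.85, 0.89 and 0.73 in atRA. All 3 atRA arrays were again higher, and Hoxb2 rose 1.99-fold (0.99 ± 0.10, limma adjusted p = 3.37e-04).

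Hoxb3, another hindbrain gene, was read by 2 probe sets that differed in size of response. Probe set 1456229_at read -0.21, -0.04 and -0.10 in vehicle and 0.89, 0.89 and 0.91 in atRA, the tightest atRA group of the 12. It rose 2.02-fold (1.02 ± 0.09, limma adjusted p = 1.75e-04). Probe set 1427605_at read -0.12, -0.16 and -0.13 in vehicle and 0.24, 0.17 and 0.21 in atRA, so its groups did not overlap either. Its difference of 0.34 ± 0.09 was not called (limma adjusted p = 0.166). The mean of both Hoxb3 probe sets, tested among gene means, was called at 0.68 ± 0.05 (limma adjusted p = 1.93e-05). In the RefSeq models the Hoxb3 gene overlaps Hoxb4 and the microRNA gene Mir10a, so which transcripts a Hoxb3 probe set reads was not resolved.

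Hoxb4, a gene of the posterior hindbrain that also acts in blood stem cells, also had 2 probe sets. Probe set 1460379_at read -0.11, -0.04 and -0.18 in vehicle and 0.35, 0.66 and 0.38 in atRA, a rise of 0.57 ± 0.11 (1.49-fold, limma adjusted p = 0.0407). This call was lost when any 1 of its 6 arrays was left out, with limma adjusted p from 0.0766 to 0.179. Probe set 1451761_at gave 0.43 ± 0.11 and was not called (limma adjusted p = 0.147). It was called under quantile normalization (limma adjusted p = 0.0223) and under array weights (limma adjusted p = 0.0484). The mean of the 2 probe sets, tested among gene means, was called at 0.50 ± 0.10 (limma adjusted p = 0.0223). The annotation gives both probe sets the same source sequence, and the mean was not tested with arrays left out.

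Hoxb5, which acts in the foregut, lung and enteric nervous system, gave the largest response of the cluster. Its vehicle arrays read -0.61, -0.09 and -0.29 and its atRA arrays 1.15, 1.39 and 1.37. Again the atRA arrays stood apart, above every vehicle array. Hoxb5 rose 3.10-fold (1.63 ± 0.13, limma adjusted p = 5.93e-05), which ranked 2 of 37600 probe sets by size of increase. Hoxb5os, a non-coding transcript whose RefSeq model overlaps Hoxb5 and Hoxb6, differed by 0.20 ± 0.12 and was not called (limma adjusted p = 0.805).

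On the 5' side, from Hoxb6 to Hoxb13, no difference was called. Hoxb6 read -0.21, 0.03 and 0.00 in vehicle and 0.18, 0.28 and 0.32 in atRA, a difference of 0.32 ± 0.09 (limma adjusted p = 0.201). Its groups did not overlap. Hoxb7 differed by 0.15 ± 0.09 with overlapping groups (limma adjusted p = 0.811). The probe set shared by Hoxb8 and Hoxb7 differed by 0.40 ± 0.11 (limma adjusted p = 0.200). Hoxb9, a gene of the thoracic region, had the smallest difference, 0.06 ± 0.07 (95% interval -0.08 to 0.20, limma adjusted p = 0.927).

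Hoxb13, the gene at the 5' end of the cluster, known from the prostate and the tail bud, read 0.40, -0.12 and 0.15 in vehicle and 0.78, 0.49 and 0.73 in atRA. All 3 atRA arrays were higher, by a narrow margin over the vehicle array of set 2. The difference of 0.52 ± 0.15 was not called (limma adjusted p = 0.232). With the set number as a block it was called, with a limma adjusted p of 0.0379, and within each set the atRA array lay above its vehicle array. Array weights without a block called it too (0.59, limma adjusted p = 0.0372).

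The 5' minus 3' difference of control genes, a rough measure of RNA integrity, moved with this comparison. The control values are centred too, so only shifts between arrays can be read. Over 4 control genes of the array, the mean 5' minus 3' log2 difference was -0.09, -0.12 and -0.08 in the WT vehicle arrays and 0.02, -0.02 and -0.01 in the WT atRA arrays, so the groups did not overlap. Its part in the result was not tested. None of the 10 pluripotent, 12 endoderm, 5 fibroblast and 6 neural markers measured was called for the WT response, and their list medians lay between -0.07 and -0.04. In bulk RNA, more cells expressing a Hoxb gene and more of its RNA per cell cannot be told apart.

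**Figure D2:**
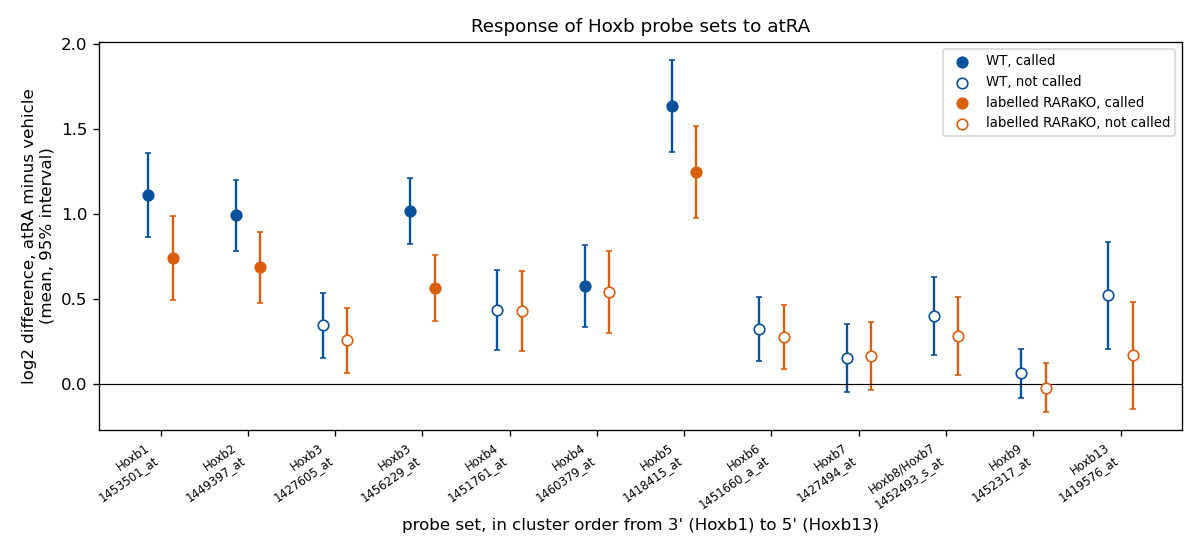
Log2 difference between atRA and vehicle (vertical axis, mean with 95% interval) for each Hoxb probe set in cluster order, in WT and in arrays labelled RARaKO; filled points were called at an adjusted p under 0.05. Hoxb5 stands highest in both, at 1.63 and 1.25, and the values beyond Hoxb5 are 0.52 or lower.

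In the arrays labelled RARaKO atRA also raised Hoxb1, Hoxb2, Hoxb3 and Hoxb5, each with a smaller estimate than in WT. Of the 12 probe sets 4 rose, against a background of 0.215%, and none fell (background 0.0479%). The median of the 12 was 0.35 (all probe sets -0.00), and 11 of 12 differences were above 0. In 8 of the 12 every atRA array exceeded every vehicle array, which held for 7.31% of all probe sets, and in none was every one lower (5.4% of all).

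Hoxb5 read -0.91, -1.15 and -1.27 in vehicle and 0.13, 0.20 and 0.09 in atRA. Its groups were far apart, and it rose 2.37-fold (1.25 ± 0.13, limma adjusted p = 9.58e-04), rank 3 of 37600 by size of increase. This call held without each single array, with limma adjusted p up to 0.00913. Hoxb1 read -0.56, -0.65 and -0.87 in vehicle and 0.14, -0.02 and 0.02 in atRA, a 1.67-fold rise (0.74 ± 0.11, limma adjusted p = 0.0162). Its groups did not overlap, but the call was lost without any 1 of 5 of its 6 arrays (all but the vehicle array of set 2), with a limma adjusted p of up to 0.0834.

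Hoxb2 read -0.45, -0.45 and -0.57 in vehicle and 0.36, 0.19 and 0.02 in atRA. All 3 atRA arrays were higher, and Hoxb2 rose 1.61-fold (0.68 ± 0.10, limma adjusted p = 0.00940). Without the vehicle array of set 4 its adjusted p was 0.0524 (limma). Hoxb3 probe set 1456229_at read -0.32, -0.31 and -0.64 in vehicle and 0.04, 0.17 and 0.22 in atRA, a 1.48-fold rise (0.56 ± 0.09, limma adjusted p = 0.0195). Its groups did not overlap. The call was lost without the vehicle array of set 4 or the atRA array of set 3 or 4 (limma adjusted p up to 0.0985). Without the vehicle array of set 4 only Hoxb5 stayed called among the 12, so the count fell from 4 to 1, and without the atRA array of set 3 or of set 4 it was 2.

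The other probe sets were not called in the arrays labelled RARaKO. Hoxb4 gave 0.54 ± 0.11 at 1460379_at (limma adjusted p = 0.0961) and 0.43 ± 0.11 at 1451761_at. The mean of the 2, tested among gene means and not with arrays left out, was called at 0.48 ± 0.10 (limma adjusted p = 0.0420). The second Hoxb3 probe set gave 0.26 ± 0.09, Hoxb6 0.27 ± 0.09 and Hoxb7 0.16 ± 0.09. Hoxb9 differed by -0.02 ± 0.07 and Hoxb13 by 0.17 ± 0.15, each with overlapping groups. The mean 5' minus 3' difference of the control genes ran from -0.02 to 0.13 in the vehicle arrays and from 0.00 to 0.09 in the atRA arrays, which overlap.

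The difference between the responses was tested directly, as an interaction term. It was called for none of the 12 Hoxb probe sets, and for none of the 37600 in all (0%; limma, smallest adjusted p 1.00), although 4 Hoxb probe sets and 1168 of all (3.11%) had an unadjusted p under 0.05. Those 4 were Hoxb1, Hoxb2, Hoxb5 and the Hoxb3 probe set 1456229_at, the probe sets called in both genotypes. For Hoxb3 1456229_at the response in the arrays labelled RARaKO minus that in WT was -0.45 ± 0.13 (95% interval -0.72 to -0.18). For Hoxb5 the interval ran from -0.77 to -0.00, for Hoxb1 from -0.72 to -0.02, and for Hoxb2 from -0.60 to -0.01. For Hoxb4 1460379_at it ran from -0.38 to 0.31 and for Hoxb7 from -0.27 to 0.29, so differences of that size in either direction remain possible. Of the 12 differences 11 were below 0, with a median of -0.10 (all probe sets 0.01). These numbers do not show that the responses differ after adjustment, nor that they are equal.

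Without ligand, Hoxb1 and Hoxb5 were already lower with the RARaKO label. In vehicle 2 of the 12 Hoxb probe sets were called lower, against a background of 1.16%, and none higher (background 1.84%). Hoxb1 was 1.57-fold lower (-0.65 ± 0.11, limma adjusted p = 0.00765) and Hoxb5 1.71-fold lower (-0.78 ± 0.13, limma adjusted p = 0.00475). By the values above, the highest RARaKO vehicle array of Hoxb1, at -0.56, lay well under the lowest WT vehicle array, at -0.15. For Hoxb5 these were -0.91 and -0.61, so neither gene overlapped.

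A further 4 probe sets did not overlap and were lower without being called: Hoxb2 (-0.32 ± 0.10, limma adjusted p = 0.104), Hoxb3 1456229_at (-0.30 ± 0.09), Hoxb4 1460379_at (-0.24 ± 0.11) and Hoxb13 (-0.49 ± 0.15, limma adjusted p = 0.104). With the set number as a block Hoxb2 and Hoxb13 were called too, at adjusted p of 0.0201 and 0.0167 (limma), which makes 4 called. Without a block, Hoxb2 was called under quantile normalization (-0.43, limma adjusted p = 0.0336) and Hoxb13 under array weights (-0.49, limma adjusted p = 0.0354). In all, 6 of the 12 had every RARaKO array under every WT array, against 12.7% of all probe sets. Hoxb9 went the other way: its RARaKO vehicle arrays read 0.16, 0.08 and 0.12 and its WT vehicle arrays -0.06, -0.03 and -0.12. All 3 were higher, which held for 9.69% of all probe sets, but the difference of 0.19 ± 0.07 was not called (limma adjusted p = 0.182). Hoxb7 and the Hoxb3 probe set 1427605_at each differed by 0.01 ± 0.09. The median over the 12 was -0.21 (all probe sets -0.01).

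In atRA Hoxb1, Hoxb2, Hoxb3, Hoxb5 and Hoxb13 were lower in the arrays labelled RARaKO. Of the 12 probe sets 5 were called lower, against a background of 1.51%, and none higher (background 1.61%). Hoxb5 was 2.24-fold lower (-1.17 ± 0.13, limma adjusted p = 2.75e-04), the 8th of 37600 probe sets from the bottom, and Hoxb1 2.03-fold lower (-1.02 ± 0.11, limma adjusted p = 3.58e-04). Hoxb3 1456229_at was 1.69-fold lower (-0.75 ± 0.09, limma adjusted p = 5.64e-04) and Hoxb2 1.55-fold lower (-0.63 ± 0.10, limma adjusted p = 0.00326). These 5 calls held without each single array of the comparison.

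Hoxb13 was the remaining one. Its atRA response in WT was not called in the main fit. It was called with the set number as a block (limma adjusted p = 0.0379) and under array weights (limma adjusted p = 0.0372). In the arrays labelled RARaKO the response was not called. Its RARaKO arrays read -0.40, -0.43 and -0.19 in vehicle and 0.12, -0.38 and -0.26 in atRA. The lowest WT atRA array, at 0.49, lay above all 6, and in atRA Hoxb13 was 1.79-fold lower in the arrays labelled RARaKO (-0.84 ± 0.15, limma adjusted p = 0.00742).

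Every atRA array labelled RARaKO was below every WT atRA array in 6 of the 12 probe sets, the 5 called and Hoxb6 (-0.22 ± 0.09, limma adjusted p = 0.203), against 10.5% of all probe sets, and none of the 12 had all 3 higher (9.9% of all). Hoxb4 differed by -0.28 ± 0.11 at 1460379_at (limma adjusted p = 0.208) and by -0.10 ± 0.11 at 1451761_at, with overlapping groups at both. Hoxb7 differed by 0.02 ± 0.09 and Hoxb9 by 0.10 ± 0.07. The median over the 12 was -0.26, against 0.00 for all probe sets. The genotype comparisons use the same arrays as the responses, so the 4 sets of values are not independent of each other.

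**Figure D3:**
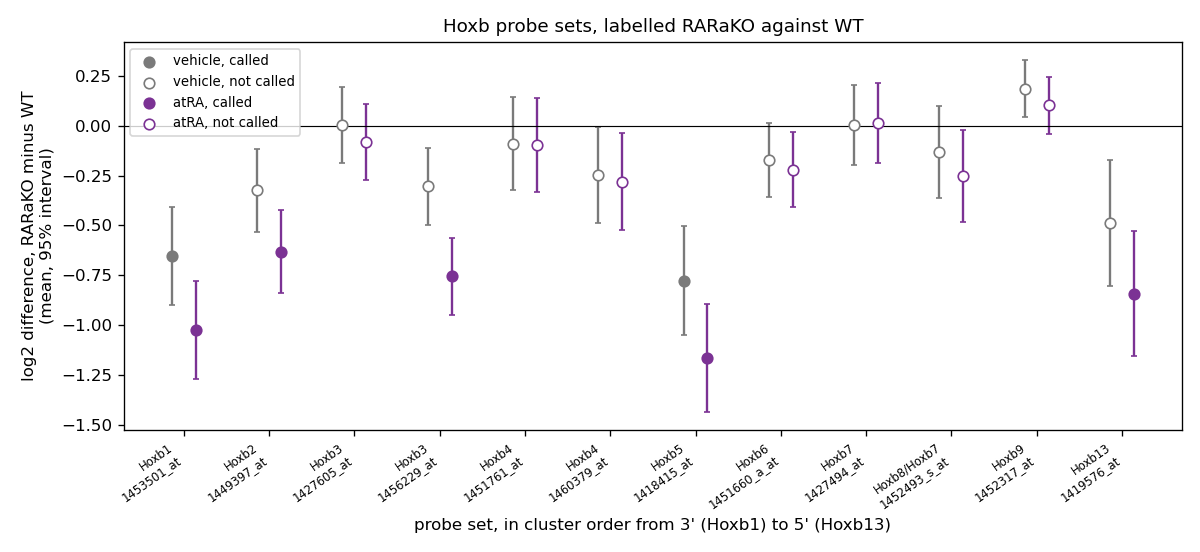
Log2 difference between arrays labelled RARaKO and WT (vertical axis, mean with 95% interval) for each Hoxb probe set in cluster order, in vehicle and in atRA; filled points were called at an adjusted p under 0.05. Hoxb1 and Hoxb5 are called lower in both, at -0.65 and -0.78 in vehicle and -1.02 and -1.17 in atRA, while Hoxb7 and Hoxb9 lie at or above 0.

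Set in order, Hoxb5 was lowest in RARaKO vehicle (mean -1.11 ± 0.18 SD, n = 3), then in WT vehicle (-0.33 ± 0.26), in RARaKO atRA (0.14 ± 0.06) and in WT atRA (1.30 ± 0.13), and no 2 neighbouring groups overlapped. Hoxb2 and Hoxb3 1456229_at had the same order, also without overlap between neighbours. The gap between the highest WT vehicle array and the lowest RARaKO atRA array was narrow. It ran from -0.02 to 0.02 for Hoxb2, from -0.04 to 0.04 for Hoxb3 1456229_at and from -0.09 to 0.09 for Hoxb5. Because each probe set is centred on its median, these limits must mirror each other around 0, and only the width of the gap can be read. The share of all probe sets with such an order was not counted. In Hoxb1 the WT vehicle arrays (-0.04 ± 0.14) and the RARaKO atRA arrays (0.05 ± 0.08) overlapped, between RARaKO vehicle (-0.69 ± 0.16) and WT atRA (1.07 ± 0.21). The order of Hoxb13 was different: RARaKO vehicle (-0.34 ± 0.13) was lowest and overlapped RARaKO atRA, and RARaKO atRA (-0.18 ± 0.26) lay below WT vehicle (0.15 ± 0.26), with overlap, and WT atRA was highest (0.67 ± 0.15). WT vehicle against RARaKO atRA was not tested.

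Markers of other cell types were set beside the genotype comparisons. No pluripotent, endoderm or fibroblast marker was called in vehicle or atRA. Of 6 neural markers Tubb3 was higher with the RARaKO label in vehicle (0.65 ± 0.14, limma adjusted p = 0.0243) and in atRA (0.70 ± 0.14, limma adjusted p = 0.0162), and Neurod1 was lower in atRA (-0.65 ± 0.13, limma adjusted p = 0.0170). Their medians were 0.02 in vehicle and -0.00 in atRA, and summed levels are not in centred values. The 5' minus 3' difference of the control genes was higher in all RARaKO vehicle arrays (-0.02 to 0.13) than in all WT vehicle arrays (-0.12 to -0.08), and the groups overlapped in atRA. The part of either in the result was not tested.

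Among the other Hox clusters the genes called for atRA were Hoxa genes. Of 21 measured Hoxa, Hoxc and Hoxd genes 3 rose in WT: Hoxa2 (0.93 ± 0.14, limma adjusted p = 0.00691), Hoxa4 (1.25 ± 0.16, limma adjusted p = 0.00296) and Hoxa5 (1.28 ± 0.22, limma adjusted p = 0.0204). The Hoxa5 call was lost without any 1 of 5 of its 6 arrays (all but the vehicle array of set 2), with a limma adjusted p of up to 0.108. With 1 probe set per gene, 3 of the 9 Hoxb genes (Hoxb1, Hoxb2 and Hoxb5) and 115 of 16509 named genes rose in WT. None of the 6 Hoxc or 6 Hoxd genes was called, and the median over the 21 was 0.02, against 0.43 over the 9 Hoxb genes with 1 probe set each and -0.01 over all named genes. In the arrays labelled RARaKO Hoxa4 rose (0.91 ± 0.16, limma adjusted p = 0.0444), a call lost without any 1 of 4 of its 6 arrays (all but the vehicle array of set 2 and the atRA array of set 4; limma adjusted p up to 0.212). Hoxa5 gave 1.19 ± 0.22 there (limma adjusted p = 0.0549) and Hoxa2 0.45 ± 0.14 (limma adjusted p = 0.333).

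By paralogue group, the number shared by genes at the same position in different clusters, the called genes in WT lay in groups 1 to 5 in both Hoxa and Hoxb. Group 3 was split: Hoxb3 1456229_at rose by 1.02, while Hoxa3 differed by 0.03 ± 0.09 and Hoxd3 by -0.09 ± 0.09. Hoxb3 1427605_at, which stood for Hoxb3 in gene counts, differed by 0.34 and was not called. In group 4 Hoxa4 and Hoxb4 1460379_at rose and Hoxc4 differed by 0.01 ± 0.13, and in group 5 Hoxa5 and Hoxb5 rose and Hoxc5 differed by -0.03 ± 0.10. Hoxb4 1451761_at, which stood for Hoxb4 in gene counts, differed by 0.43 and was not called. Hoxd1, the other group 1 gene measured, differed by -0.20 ± 0.14 (limma adjusted p = 0.854).

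Between the genotypes none of these 21 genes was called in vehicle, with a range of -0.43 to 0.05, a median of -0.10 and 1 above 0. The 9 Hoxb genes with 1 probe set each ran from -0.78 to 0.19, with a median of -0.17 and 3 above 0. Of these, Hoxb1 and Hoxb5 were called, at -0.65 and -0.78. Over all named genes the median was -0.02. In atRA Hoxc10, named because it was the 1 call, was lower in the arrays labelled RARaKO (-0.45 ± 0.10, limma adjusted p = 0.0309), and this call was lost without any 1 of its 6 arrays (0.0526 to 0.131). Hoxa2 differed by -0.54 ± 0.14 in atRA (limma adjusted p = 0.0529).

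**Figure D4:**
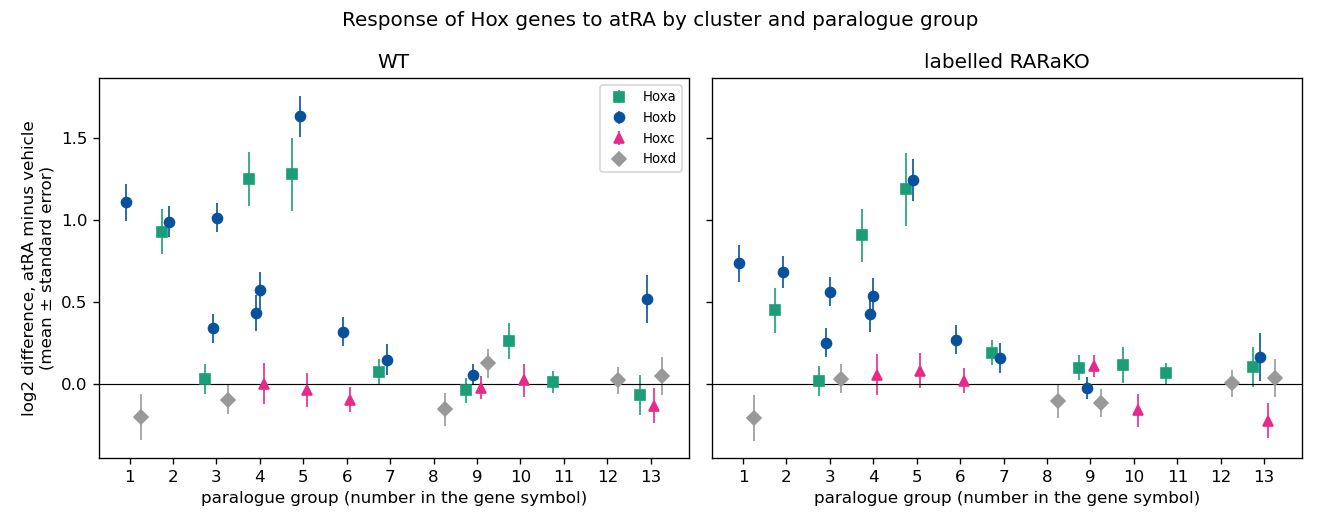
Log2 difference between atRA and vehicle (vertical axis, mean ± standard error) of Hox probe sets by paralogue group (horizontal axis), coloured by cluster, in WT (left) and in arrays labelled RARaKO (right). In WT Hoxa2, Hoxa4, Hoxa5 and the called Hoxb probe sets stand highest, between 0.57 and 1.63, and in both panels Hoxc and Hoxd values lie between -0.22 and 0.13.

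No measured gene beside the cluster was called for atRA. Of 6 measured genes before Hoxb1 (Skap1, Snx11, Cbx1, Nfe2l1, Copz2 and Cdk5rap3) and 8 beyond Hoxb13 none was called in WT or in the arrays labelled RARaKO. Their WT differences ran from -0.10 to 0.12 before Hoxb1 and from -0.08 to 0.17 beyond Hoxb13. Skap1, the neighbour of Hoxb1, differed by -0.10 ± 0.09, beside a called rise of 1.11 in Hoxb1.

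Beyond Hoxb13, 2 genes differed between the genotypes. Calcoco2, which encodes an autophagy receptor, was lower with the RARaKO label in vehicle (-0.50 ± 0.10, limma adjusted p = 0.0155) and in atRA (-0.60 ± 0.10, limma adjusted p = 0.00535). The vehicle call was lost without the WT array of set 4 or the RARaKO array of set 3 (limma adjusted p up to 0.0661). Ttll6, a tubulin-modifying enzyme gene that follows Hoxb13, was lower in vehicle (-0.29 ± 0.07, limma adjusted p = 0.0329), lost without any 1 of 5 of its 6 arrays (all but the WT array of set 2; up to 0.137), and gave -0.13 ± 0.07 in atRA. The RefSeq models of Ttll6 and Calcoco2 overlap. None of the 6 genes before Hoxb1 was called between the genotypes. Over the 1364 named genes of chromosome 11 the vehicle difference had a median of -0.02, as over all named genes, and 1.39% were called lower against 1.33% of all. These values cover the whole chromosome and do not describe the stretch around the cluster. A local difference there was not tested.

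**Figure D5:**
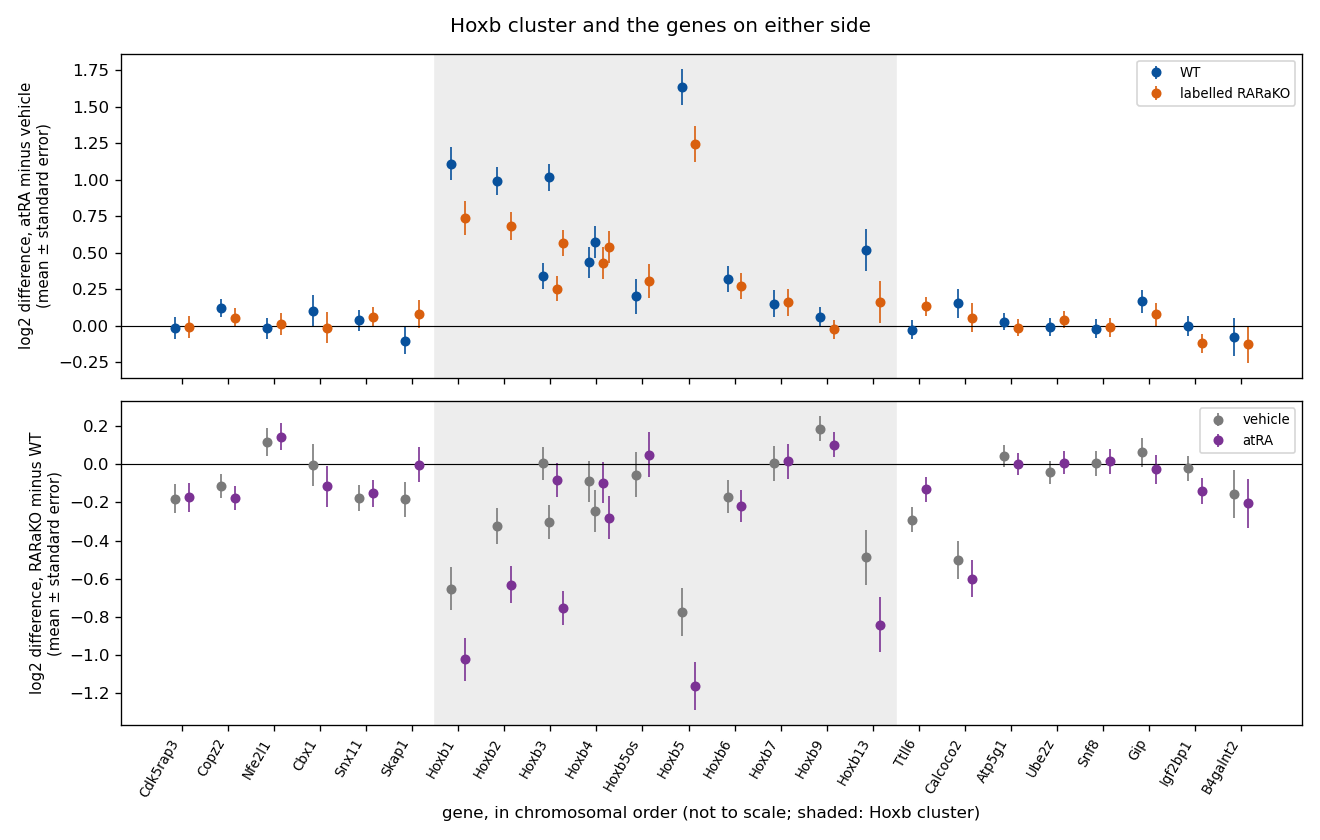
Log2 differences (vertical axes, mean ± standard error) of the genes in and around the Hoxb cluster, in chromosomal order and not to scale, with the cluster shaded; the upper panel shows atRA minus vehicle in each genotype and the lower panel arrays labelled RARaKO minus WT in vehicle and atRA. The flanking genes lie between -0.13 and 0.17 in the upper panel, and Calcoco2, at -0.50 and -0.60, stands out among them in the lower panel.

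Among 12 genes that act upstream of Hox genes, 4 rose with atRA in WT. Cdx1, a homeobox gene that activates Hox genes in the posterior embryo, rose by 1.74 ± 0.13 (limma adjusted p = 5.18e-05), and Rarb, a retinoic acid receptor and direct target of the hormone, by 1.35 ± 0.09 (limma adjusted p = 1.33e-05). Cyp26a1, the enzyme that breaks down retinoic acid, rose by 1.35 ± 0.08 (limma adjusted p = 1.33e-05). Rara rose by 0.45 ± 0.09 (limma adjusted p = 0.0460), a call lost without any 1 of its 6 arrays (0.0695 to 0.197) and with the set number as a block (0.0543). In the arrays labelled RARaKO Cdx1 (1.45 ± 0.13), Rarb (0.95 ± 0.09) and Cyp26a1 (1.38 ± 0.08) rose. Cyp26a1 and Cdx1 were not called between the genotypes in vehicle (-0.06 ± 0.08 and 0.26 ± 0.13), and Rarb was higher in the arrays labelled RARaKO (0.54 ± 0.09, limma adjusted p = 0.00394), a call lost under quantile normalization, where the difference was 0.30 (limma adjusted p = 0.128). In atRA Rxrg, a retinoid X receptor gene, was lower (-0.61 ± 0.12, limma adjusted p = 0.0145), a call lost without the WT array of set 2 or 3 or the RARaKO array of set 2 (up to 0.0566). Rara was higher in atRA too (0.36 ± 0.09, limma adjusted p = 0.0488), a call lost under robust eBayes (0.0505), in a fit of only the groups compared (0.120), and without the WT or the RARaKO array of set 2 or 4 (up to 0.154).

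Hox proteins bind DNA with Pbx and Meis partners. Of 8 such cofactor genes measured, Pbx2 rose with atRA in WT (0.56 ± 0.06, limma adjusted p = 6.08e-04) and in the arrays labelled RARaKO (0.38 ± 0.06, limma adjusted p = 0.0175). The second call was lost without any 1 of 4 of its 6 arrays (all but the vehicle array of set 2 and the atRA array of set 3; up to 0.108). Between the genotypes in vehicle Meis1 (-0.48 ± 0.11, limma adjusted p = 0.0384) and Meis2 (-0.73 ± 0.16, limma adjusted p = 0.0305) were lower in the arrays labelled RARaKO, and so was Meis2 in atRA (-0.69 ± 0.16, limma adjusted p = 0.0381). Each of these 3 calls was lost without any 1 of 5 of its 6 arrays: all but the RARaKO array of set 2 (limma adjusted p up to 0.121, 0.115 and 0.120). Among 7 measured hindbrain partners and targets of Hox proteins none was called for atRA in either genotype, and Gata3 was called lower in atRA in the arrays labelled RARaKO. None of 12 measured chromatin regulators of Hox clusters was called in any comparison.

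The genes outside the cluster whose pattern over the 12 arrays was most like that of Hoxb5 were Fgfr4, a fibroblast growth factor receptor gene (Pearson r = 0.984), Cdc25b, a cell cycle phosphatase gene (0.954), Ei24 (0.948), Nyap1 (0.946) and Pim1, a kinase gene (0.939). For Hoxb1 they were Fgfr4 (0.965), Ei24 (0.957), Nyap1 (0.949), Mkrn1 (0.931) and Zadh2 (0.929). These were the top 5 of 16500 genes by correlation in each case, and the 12 points fall into the same 4 groups, so the values describe a shared pattern of group means. Fgfr4, chosen by this likeness, is given as a description: its differences with atRA were 0.64 ± 0.07 in WT and 0.57 ± 0.07 in the arrays labelled RARaKO, and between the latter and WT they were -0.40 ± 0.07 in vehicle and -0.47 ± 0.07 in atRA.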

How the data were processed

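The deposited values are log2 expression values per probe set that the authors made with GCRMA, per the submitters' processing notes, its version not given. The log base is not stated and is taken as 2. Testing the file showed each probe set centred on its median over the 12 arrays, so levels are not in the values. Their coarse class was read from the spacing of the numbers.

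The file holds 37661 probe sets, of which 61 are controls, and the remaining 37600 entered the tests. The annotation gave a single symbol to 30488, several to 784 and none to 6328. All 12 arrays entered 1 limma 3.58.1 fit in R 4.3.3 (lmFit and eBayes, a mean per group, no block, 8 residual and 4.60 prior degrees of freedom). P-values were two-sided, adjusted by Benjamini-Hochberg over 37600 probe sets and called under 0.05. For gene counts 1 probe set stood for a gene, chosen by highest level class, then by type (_at before _a_at and _s_at), then by lowest number. Named beside the members were up to 6 genes of each list by smallest p, the genes called in a list, and the 5 most correlated with Hoxb1 and with Hoxb5. The members, lists and tests were chosen with earlier results of these data known.

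Same-numbered arrays deviated from their group means together in 3 of the 4 comparisons of groups, with every correlation over 0.1: 0.392, 0.267 and 0.101 between the WT groups, 0.210, 0.117 and 0.497 between the RARaKO groups, and 0.137, 0.116 and 0.238 between the vehicle groups. Between the atRA groups they were 0.287, 0.144 and 0.0375. Over all pairs of arrays from different groups, the median correlation was 0.192 for the same number and -0.110 for other numbers. All 12 arrays correlated best with an array of their own number. The main fit did not use this pairing, which the block alternative does. The pairing rests on the set numbers in the labels and this check. The number of arrays, 3 per group, limits the precision of every value. Alternatives were the set number as a block, quantile normalization, centring each array, array weights, robust eBayes, a level filter, the groups compared alone, gene means, and leaving out arrays or sets.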

Additional observations from a re-analysis of the deposited data

How the results depend on the processing

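The counts of called Hoxb probe sets (5, 4, 0, 2 and 5 for the WT response, the RARaKO response, their difference, and the genotype comparisons in vehicle and in atRA) stayed within 1.5 times under quantile normalization, centring of each array, robust eBayes, gene means and a level class of 4 or more (chosen after seeing the data). Exceptions were array weights, which gave 8 in the WT response (adding Hoxb13, Hoxb4 1451761_at and the probe set shared by Hoxb8 and Hoxb7), the replicate block, which gave 4 in vehicle (adding Hoxb2 and Hoxb13), and a fit of only the groups compared, which gave 1 in the RARaKO response (Hoxb5). The cause was not tested. Quantile normalization added Hoxb4 1451761_at in the WT response and Hoxb2 in vehicle, and array weights added Hoxb13 in vehicle. The replicate block also called Hoxb13 in the WT response, lost Rara there, and changed no other call among the Hoxb probe sets. Over all probe sets it called 339, 167, 0, 1972 and 2344, against 214, 99, 0, 1131 and 1173 without it. Array weights called 382, 118, 0, 2071 and 1710, and the fit of only the groups compared called 14 in the RARaKO response and 592 in atRA.

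Leaving out 1 array gave counts of 4 to 4 in the WT response, 1 to 4 in the RARaKO response, 2 to 2 in vehicle and 5 to 5 in atRA. Leaving out a whole set gave 4 to 4, 0 to 1, 0 to 2 and 4 to 5, and the difference of responses stayed at 0. The remaining changes of sign were all in values not called. In the RARaKO response Hoxb9 became 0.00428 under array weights, and when arrays or sets were left out Hoxb9 ran from -0.0818 to 0.0350 and Hoxb13 from -0.0106 to 0.281. In the difference of responses Hoxb7 became -0.0111 under quantile normalization. When arrays or sets were left out it ran from -0.134 to 0.149, Hoxb6 from -0.165 to 0.0508, Hoxb3 1427605_at from -0.239 to 0.0327, Hoxb4 1451761_at from -0.148 to 0.144 and Hoxb4 1460379_at from -0.201 to 0.146. In vehicle Hoxb3 1427605_at became -0.00802 under quantile normalization and ran from -0.0566 to 0.121, and Hoxb7 became -0.0318 under array weights and ran from -0.0747 to 0.0801. In atRA Hoxb7 became -0.00361 under quantile normalization and -0.0158 under array weights and ran from -0.129 to 0.0958, and Hoxb4 1451761_at ran from -0.237 to 0.0283.

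The planned filter at a level of 6 needs levels, which are not in the values, and its stand-in, the highest level class, left 0 Hoxb probe sets, so neither was run. Signal over background per array was not analysed here.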
